A study of Drosophila melanogaster with 384 samples.

Results

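The piRNA pathway genes described here are piwi, aub, AGO3, spn-E, zuc, armi, krimp, qin, rhi and del, which were found in the count table by the FlyBase identifier that carries each symbol. All 10 were present, among 39823 gene models that were used, and all 10 passed the minimum of 5 counts per library in each test. Their levels were measured by RNA sequencing in whole adult flies of 96 inbred DGRP lines, which derive from a wild population and carry no transgene. Every group was reared on medium with 10% (v/v) ethanol, and no group on standard medium was analysed here, so that nothing below measures an effect of ethanol. For each line there were 2 samples of 25 mated females and 2 samples of 30 males, aged 3 to 5 days, which gave 384 libraries. Lines are labelled by number only, and each sample is a pool of flies. Levels are given as CPM, that is, read counts scaled to a common library total after TMM normalization, and the level of a line is the mean of its 2 libraries.

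PIWI-interacting RNAs (piRNAs) are small RNAs that guide Argonaute proteins of the PIWI family to transposon transcripts, above all in the gonads. In the germ cells of Drosophila, precursors are transcribed from heterochromatic clusters, exported to the nuage around the nucleus, cut and loaded onto PIWI proteins, and amplified by reciprocal slicing of sense and antisense transcripts (the ping-pong cycle). The loaded Piwi protein returns to the nucleus and directs silencing of transposon loci. The counts measure mRNA of the pathway's genes. Neither piRNAs nor transposons are among them: the libraries were made from RNA longer than piRNAs, and the authors set reads of repeats aside before alignment to the genome.

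The 10 genes lie on 4 chromosome arms. Release 5 positions were at hand for 4 of them. Of these, piwi (FBgn0004872, 2L, 10982205 to 10987420) and aub (FBgn0000146, 2L, 10997819 to 11001476) lie on the same arm, spn-E (FBgn0003483) lies at 11663141 to 11670137 on 3R, and rhi (FBgn0004400) at 13515996 to 13521021 on 2R. In addition, zuc (FBgn0261266) and del (FBgn0086251) lie on 2L, krimp (FBgn0034098) on 2R, AGO3 (FBgn0250816) and armi (FBgn0041164) on 3L, and qin (FBgn0263974) on 3R. In the release 6 annotation, 4145 of the 4162 exon bases of armi are also exon of CG46463 on the same strand, a gene that has no row of its own here, so that the counts of armi may hold reads of both. The exons of piwi, aub, zuc, qin and del share between 10 and 191 bases with genes on the opposite strand.

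Total counts per library were between 5356737 and 17401404. The whole flies held the tissues their labels imply. All 11 female germline markers and all 14 late follicle cell markers were above 1 CPM on average in females. All 13 late testis markers were so in males. The lists were not confined to the sex they mark. In males, 10 of the germline and 4 of the follicle cell markers were also above 1 CPM, and in females 5 of the testis markers. The germline list summed to a median of 5510 CPM in females and 1199 CPM in males. Within it, nos and exu were higher in males (log2 fold changes of males over females 1.14 and 0.85), while the others were lower. In 9 lines, 1 library held transcripts of the other sex at over 10 times the median of its own sex. These were females of lines 59, 83, 374 and 555, by the late testis list, and males of lines 40, 158, 176, 399 and 852, by the follicle cell list. Results are given with these lines, and values without them stand beside some of those in males and between the sexes that depended on them. The 7 flow cells (A to G) were shared unevenly. Of the 96 lines, 45 had their female replicates on A and B, in that order, and 51 did not, so that flow cell and line are partly confounded. Replicates differed in level as well. In both sexes flow cell A held only replicate 1 and flow cell B only replicate 2. For lines on A and B, a shift between replicates therefore cannot be told apart from flow cell. In females, replicate 2 was higher than replicate 1 on average for all 10 genes, by 0.13 (del) to 0.41 (rhi) on the log2 scale within lines, against 0.13 for the median transcript with at least 50 counts. It was higher for all 10 also in the 45 lines on A and B (0.18 for qin to 0.51 for krimp, whose means were 86.4 and 120 CPM) and in the 51 others (0.03 for del to 0.35 for rhi). In males the shift was between -0.03 (piwi) and 0.24 (aub), against 0.05 for the median transcript.

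All 10 genes were higher in females than in males, in 96 of 96 lines each (quasi-likelihood test of edgeR, with p-values adjusted after Benjamini and Hochberg, BH, over 18062 transcripts). Among all transcripts tested, 37.2% were higher in females by the same test. The log2 fold change of males over females had a median of -3.84 over the 10 genes and ranged from -5.99 for piwi to -2.77 for del, against a median of 0.34 over all transcripts. In whole flies, a lower level can come from fewer cells that express a gene or from less RNA in each cell, and these cannot be told apart.

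Of the PIWI proteins, piwi encodes the nuclear member, which acts in germ cells and in the somatic cells around them. Its level in females was 105 CPM in the lowest line, 230 in the median line and 316 in the highest, and in males it was 1.90, 3.50 and 17.5 CPM. The lowest female library held 86.7 CPM and the highest male library 29.3 CPM, so that the sexes did not overlap. The mean was 231 ± 41.8 CPM in females and 3.92 ± 2.13 CPM in males (SD, n = 96 lines), and the log2 fold change of males over females was -5.99 (standard error by limma 0.06, edgeR adjusted p = 4.17e-96). The highest male values came from line 40 (5.61 and 29.3 CPM in its replicates) and line 176 (24.7 and 2.94 CPM), and in each the high library was the one with follicle cell transcripts. Without the 9 lines named above, the highest male library held 10.8 CPM of piwi.

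Aubergine (aub) and AGO3 encode the cytoplasmic partners of the ping-pong cycle. The level of aub was 67.0, 124 and 236 CPM in the lowest, median and highest line in females, and 3.03, 7.58 and 13.9 CPM in males. AGO3 had 94.0, 181 and 329 CPM in females and 3.80, 12.6 and 26.8 CPM in males. Neither gene overlapped between female and male libraries, and their log2 fold changes were -4.03 (standard error 0.05, adjusted p = 1.47e-90, edgeR) and -3.87 (standard error 0.05, adjusted p = 8.74e-86, edgeR).

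Among the genes of piRNA processing, zuc encodes the endonuclease on the outer mitochondrial membrane that cuts precursors, and armi an RNA helicase that brings them there. With 5.97, 16.6 and 36.7 CPM in the lowest, median and highest line in females, zuc had a median of 161 counts per library. In males it had 0.203, 0.870 and 2.37 CPM. These male levels rest on 1 to 27 counts per library, with a median of 9. The level of armi was 109, 198 and 294 CPM in females and 17.98, 27.9 and 58.6 CPM in males. The libraries of the sexes did not overlap for either gene. The log2 fold change was -4.19 for zuc (standard error 0.07, adjusted p = 6.88e-80, edgeR) and -2.80 for armi (standard error 0.04, adjusted p = 3.93e-85, edgeR).

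The nuage genes spn-E, krimp and qin encode a helicase and Tudor-domain proteins that act in the ping-pong cycle: Krimper brings Aub and AGO3 together, and Qin keeps the cycle between different partners. Levels of spn-E in the lowest, median and highest line were 44.6, 123 and 184 CPM in females and 4.54, 9.69 and 18.3 CPM in males. Those of krimp were 35.2, 107 and 163 CPM in females and 3.21, 7.61 and 15.8 CPM in males. The highest male lines were 176 for spn-E (24.2 and 12.5 CPM in its replicates) and 40 for krimp (10.9 and 20.6 CPM). In each, the higher library held follicle cell transcripts. The next male lines were 355 for spn-E (17.0 CPM) and 703 for krimp (15.7 CPM). For krimp the sexes were separated narrowly, by 20.7 CPM in the lowest female library and 20.6 CPM in the highest male library. That male library was replicate 2 of line 40, and without the 9 lines the highest male library held 18.9 CPM. The level of qin was 40.2, 74.6 and 184 CPM in females and 5.19, 9.31 and 17.0 CPM in males, with no overlap of libraries. The log2 fold changes were -3.63 for spn-E, -3.81 for krimp and -3.12 for qin.

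The nuclear genes rhi and del act at the clusters: Rhino is an HP1 homologue that binds chromatin of clusters transcribed from both strands, and Deadlock links it to the transcription machinery. The level of rhi was 12.3, 33.4 and 154 CPM in the lowest, median and highest line in females and 0.495, 1.21 and 12.5 CPM in males. One male library, replicate 1 of line 911, had 0 counts of rhi, where 3 counts would correspond to 0.463 CPM by its total. Levels of del were 40.1, 89.8 and 140 CPM in females and 6.29, 12.5 and 23.99 CPM in males. These were the genes whose libraries overlapped between the sexes, at 6.59 CPM in the lowest female and 12.5 CPM in the highest male library for rhi, and at 24.8 and 29.0 CPM for del. The line means of rhi overlapped also (12.3 CPM in females of line 882 and 12.5 CPM in males of line 837), and within every line the female level was still the higher. The log2 fold changes were -4.73 (standard error 0.08, adjusted p = 7.05e-81, edgeR) for rhi and -2.77 (standard error 0.05, adjusted p = 3.14e-70, edgeR) for del. In all, libraries of the sexes did not overlap for 8 of the 10 genes, while 5.41% of all transcripts tested were higher in females without overlap.

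**Figure D1:**
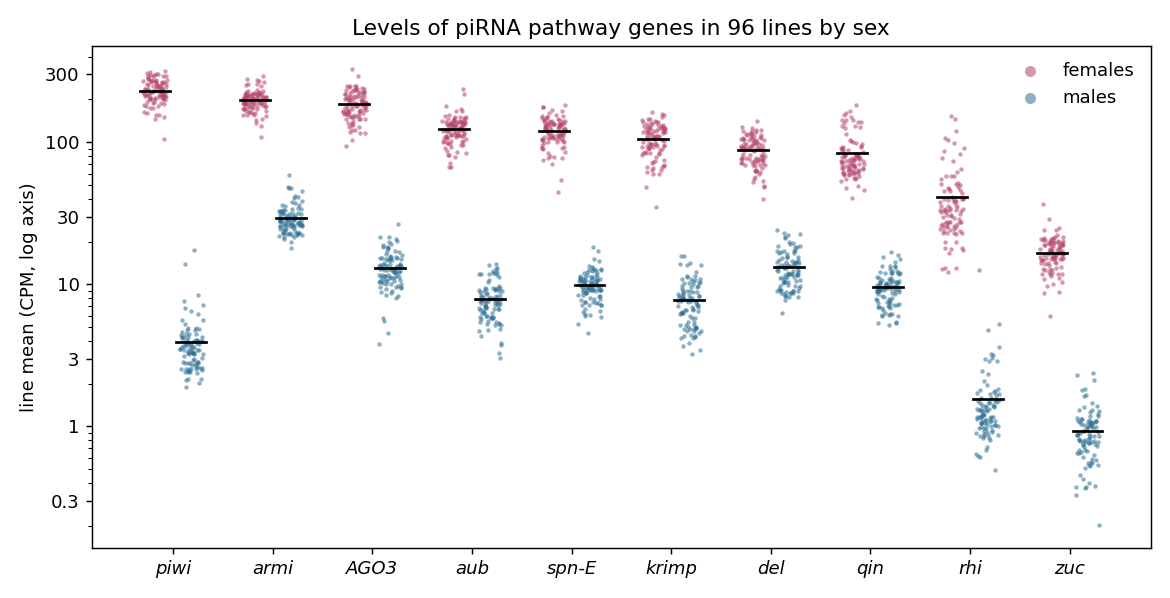
Levels of the 10 genes in females and males, with 1 point for the mean of 2 replicates of each of 96 lines, a black bar for the mean over lines, and CPM on a log axis. The female points lie above the male points in every gene apart from rhi, where the highest male line (12.5 CPM) reaches the lowest female line (12.3 CPM), and the distance between the sexes is largest for piwi.

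Per kilobase of exon, which allows levels to be compared between genes, the order in females was piwi (75.1 CPM per kb), AGO3 (58.1), armi (47.8), krimp (41.3), aub (41.1), del (26.8), rhi (26.3), spn-E (25.7), zuc (14.6) and qin (13.7). Within lines, krimp and aub could not be ordered (krimp higher in 44 of 96 lines, p = 0.777, two-sided permutation test), nor could rhi and spn-E (rhi higher in 35 of 96 lines, p = 0.0638). In males the order per kilobase was armi (7.02), AGO3 (4.09), del (3.998), krimp (3.04), aub (2.59), spn-E (2.10), qin (1.56), piwi (1.28), rhi (0.997) and zuc (0.809). Here AGO3 and del could not be ordered (AGO3 higher in 58 of 96 lines, permutation p = 0.586). The other neighbours in both orders differed at p between 1e-05, the smallest that the permutations can give, and 0.0320 (18 neighbour comparisons, not adjusted). Thus piwi was first in females and the eighth in males, and del stood higher in the male than in the female order.

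For comparison, 34 other genes of the piRNA pathway were considered, of which 31 had a row in the table, and boot, vas and sov were not matched. Of these 31, 28 were higher in females, 1 was higher in males and 2 did not pass the test, and their median log2 fold change was -1.92. The germline gene moon, whose product is recruited by Deadlock to start transcription of clusters, was at 12.9 ± 6.82 CPM in females, against 0.289 ± 0.213 CPM in males (SD, n = 96 lines) and the most negative log2 fold change of the list, -5.40. The gene higher in males was papi, which encodes a mitochondrial Tudor protein, with 77.2 ± 9.23 CPM in females and 109 ± 13.6 CPM in males, higher in males in all 96 lines. The genes that did not pass were mino, with 235 ± 24.7 and 240 ± 33.2 CPM in females and males (log2 fold change 0.00, adjusted p = 0.805, edgeR), and tud, with 669 ± 69.6 and 674 ± 84.3 CPM (log2 fold change -0.01, adjusted p = 0.347, edgeR). Of 8 genes of the siRNA and miRNA pathways, whose products act in many somatic tissues, 7 were higher in females and 1 in males, with a median log2 fold change of -0.98. The latter was loqs, which encodes double-stranded RNA-binding partners of the Dicer enzymes, with 59.0 ± 6.12 CPM in females and 133 ± 18.1 CPM in males, higher in males in all 96 lines. AGO2, the Argonaute of the siRNA pathway, had a log2 fold change of -0.36, and AGO1, that of the miRNA pathway, of -0.15. Small differences depended on the scaling. The median log2 fold change of all transcripts was 0.34 after TMM, 0.49 with DESeq2's size factors and 0.46 with total counts. With the size factors, mino and tud were called higher in males (log2 fold changes 0.15 and 0.14), while Hen1, which methylates the ends of piRNAs, went from -0.19 to -0.04 and AGO1 from -0.15 to 0.00 and neither was called. The other genes of both lists, and all 10 genes described here, kept their call under the 3 scalings.

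Variation among lines was tested within each sex against the difference between replicates. How much of it is genetic was not tested, since line is partly confounded with flow cell. In females the line effect was significant for all 10 genes, as it was for 78.6% of 14760 transcripts, and in males for all 10, as for 86.0% of 18944 transcripts (edgeR, adjusted p under 0.05). The presence of a line effect thus did not set the 10 genes apart. The size of the line effect set qin and rhi apart from the other 8 genes in females. Their F values were 13.8 and 9.85, higher than those of 97.1% and 95.2% of all transcripts, while the F values of the other genes lay between 1.73 for krimp and 3.80 for aub (adjusted p from 0.00525 to 2.78e-10, edgeR). The share of variance in log2 CPM that lay between lines was 75.9% for qin and 71.0% for rhi, between 13.8% (armi) and 43.7% (aub) for the others, and 26.5% for the median transcript. The same genes had the closest replicates, with a correlation between replicates over 96 lines of 0.82 for qin and 0.83 for rhi, against 0.31 to 0.60 in the others. The spread between replicates in these shares includes the shift between replicate 1 and replicate 2 given above, which was 0.30 on the log2 scale for armi, the gene with the lowest share. Its adjusted p of 0.00384 (edgeR) was 1.51e-06 once pool, the combination of flow cell and lane, was a covariate in limma. Both the method and the covariate differed between these fits, so the change cannot be credited to pool alone. Within the 45 lines on flow cells A and B, the line effect in females passed for 6 genes and was lost for spn-E, armi, krimp and del (adjusted p from 0.0941 to 0.193, edgeR), while within the other lines it passed for all 10.

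In females, rhi was the most variable of the 10 genes, with a 12.5-fold range over lines. Line 843 had 131 and 177 CPM in its replicates and line 105 had 121 and 173 CPM, while line 882 had 12.7 and 11.9 CPM. The lower quartile of lines was at 25.5 CPM and the upper quartile at 46.4 CPM, so that the highest lines stood well above most. Levels of qin had a shoulder of high lines: the highest 16 lines lay between 114 and 184 CPM, and the other 80 between 40.2 and 104 CPM. The same 16 lines had a median of 9.37 CPM in males, against 9.26 CPM in the other 80, a split that was made after the female values were seen. A high level in both replicates was also seen for zuc in line 439 (38.1 and 35.3 CPM, against 28.7 CPM in the next line) and for aub in line 761 (191 and 280 CPM).

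In males the line effect was spread more evenly. The share of variance between lines was from 27.9% for piwi to 69.7% for AGO3, with 47.5% for the median transcript, and F values lay between 2.20 (zuc) and 7.16 (rhi). The line effect of piwi in males (F = 2.68, adjusted p = 1.35e-06, edgeR) was lost in limma (adjusted p = 0.0532) and with pool as a covariate in limma (adjusted p = 0.0844). Within the 20 male lines that were not on flow cells A and B, it was lost for spn-E and zuc (adjusted p = 0.475 and 0.0585, edgeR). Male rhi was highest in line 837, with 12.5 CPM in each replicate, more than the 5.28 CPM of the next line, 287.

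The difference between the sexes varied among lines for all 10 genes, as it did for 50.8% of 18062 transcripts (interaction of sex and line in edgeR, adjusted p under 0.05). Again qin stood first, with F = 7.51, above 99.4% of transcripts (adjusted p = 1.22e-30, edgeR). Its female level was 4.35 times the male level in line 355 and 22.6 times in line 441. The other F values lay between 1.64 (zuc) and 3.26 (krimp). For krimp the ratio of females over males was from 4.26 in line 486 to 36.9 in line 367, for rhi from 6.14 in line 837 to 120 in line 712, and for piwi from 14.1 in line 40, which has the male library with follicle cell transcripts, to 127 in line 229. The interaction was lost in limma for piwi, spn-E and zuc (adjusted p = 0.211, 0.0996 and 0.0530), and for piwi also once limma took flow cell into account (adjusted p = 0.0551). Of the other genes of the pathway, 28 of 31 had a line effect in females, 28 of 30 in males and 21 of 31 an interaction.

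The levels of the 10 genes in females rose and fell together over lines. Of the 45 pairs, all had a positive Pearson correlation over the 96 line means of log2 CPM, with a median of 0.58, and 43 passed the test (two-sided permutation test, BH adjustment over 90 correlations, 45 in each sex). Among all pairs of 8893 annotated genes with a mean of at least 50 counts in females, the median was 0.07, and 33.8% of pairs had a correlation at least as high as the weakest that passed among the 45 (0.22). All genes were measured in the same libraries, so that depth, scaling and tissue content are shared by both members of a pair. The closest pair was spn-E and krimp (r = 0.88, Spearman's rho = 0.87, permutation p = 1e-05 for both, r = 0.84 without the 2 lines farthest from the median), followed by zuc and krimp (r = 0.81, rho = 0.77, permutation p = 1e-05 for both, r = 0.79 without 2 lines). The median over its 9 pairs was highest for krimp (0.71) and piwi (0.70), and lowest for qin (0.37) and rhi (0.25). The pairs that did not pass were rhi with zuc (r = 0.19, rho = 0.21, permutation p = 0.0668 and 0.0418) and rhi with del (r = 0.20, rho = 0.16, permutation p = 0.0509 and 0.122). Within the 45 lines on flow cells A and B the median was 0.59 and 36 pairs passed, and within the other 51 lines it was 0.53 and 39 passed.

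**Figure D2:**
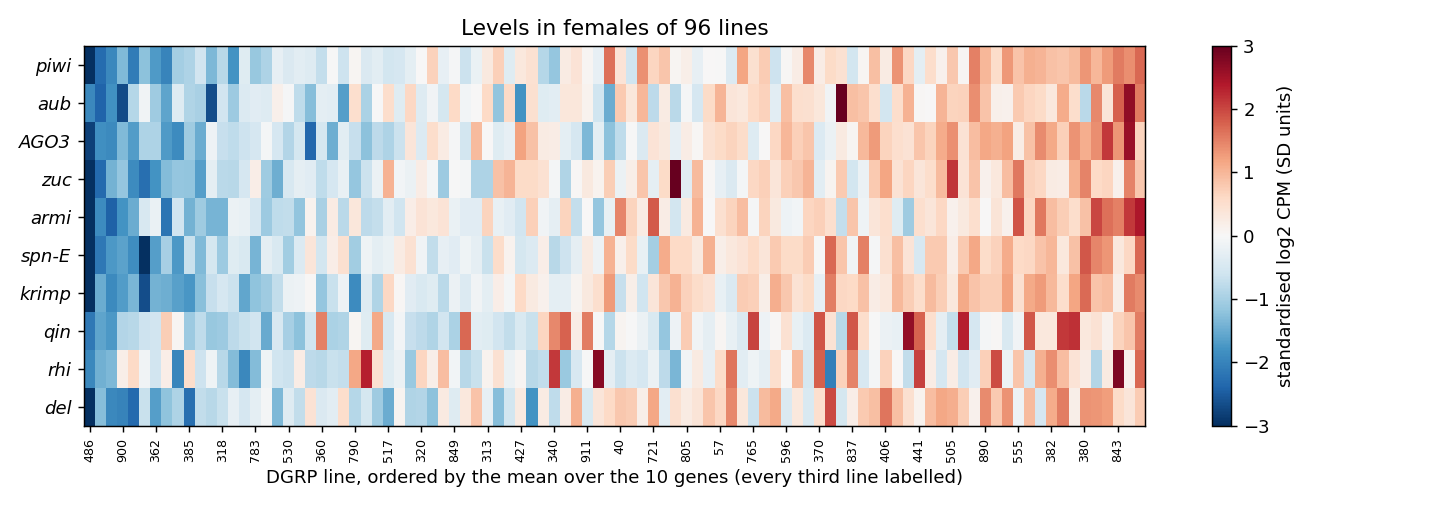
Levels of the 10 genes in females of 96 lines, each gene standardised over lines (colour, in SD of log2 CPM) and lines ordered by their mean over the genes. Line 486 is at the far left with low values throughout, and the high lines of qin and rhi are scattered along the order.

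In males the correlations were weaker. Of the 45 pairs, 43 were positive with a median of 0.28, and 32 passed, while 14.1% of all pairs of 10757 annotated genes had a correlation at least as high as the weakest that passed (0.23), and the median of all pairs was 0.02. Of the 10 genes, piwi, zuc and rhi had fewer than 50 counts in males and are not part of that background. The closest pair was aub and AGO3, the partners of the ping-pong cycle (r = 0.53, rho = 0.50, permutation p = 1e-05 for both, r = 0.42 without 2 lines). Next came piwi and spn-E (r = 0.52, rho = 0.48, permutation p = 1e-05 for both, r = 0.46 without 2 lines). In contrast to females, krimp was not correlated detectably with aub (r = -0.02, rho = 0.00, permutation p = 0.874 and 0.993) or with qin (r = -0.01, rho = 0.03, permutation p = 0.952 and 0.787). No test of the difference between the sexes was made for these pairs. Within the 45 lines whose females were on flow cells A and B, 16 pairs passed in males and the median was 0.27, and within the other 51 lines 25 passed and the median was 0.34. Without the 9 lines that held transcripts of the other sex, 27 pairs passed and the median was 0.25, with r = 0.51 for aub and AGO3 and r = 0.43 for piwi and spn-E.

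**Figure D3:**
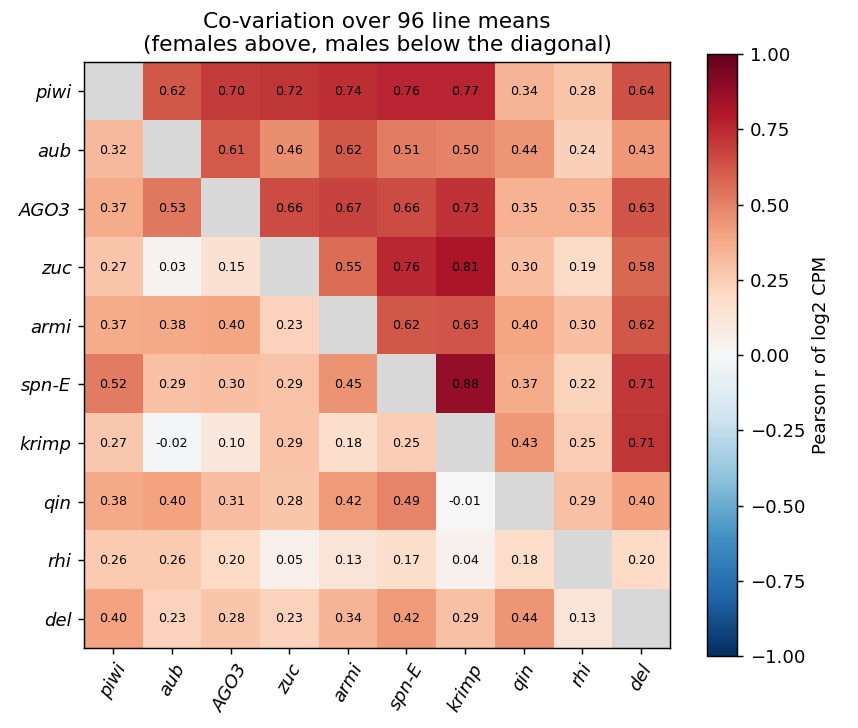
Pearson correlations of log2 CPM over 96 line means for each pair of the 10 genes, with females above and males below the diagonal. In females the block from piwi to krimp, with del, is high and the qin and rhi columns are paler, and in males the highest value is that of aub with AGO3 (0.53).

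Line 486 stood apart in females. It was the lowest of 96 lines for 8 of the 10 genes, the third lowest for rhi and the fourth lowest for aub. Its replicates held 123 and 86.7 CPM of piwi and 49.8 and 20.7 CPM of krimp. Lines 239 and 786 were among the 5 lowest lines for 8 and 7 of the genes. At the other end, lines 367 and 748 were each among the 5 highest lines for 5 genes. The replicates of line 367 held 272 and 322 CPM of piwi and 138 and 177 CPM of krimp. Those of line 748 lay further apart, with 248 and 385 CPM of piwi and 105 and 197 CPM of krimp. The summed level of 11 female germline markers (osk, bcd, nos and others) was 2198 CPM in line 486, 3117 CPM in line 239 and 3254 CPM in line 786, which were the 3 lowest of the 96 lines, and 8216 and 8165 CPM in lines 367 and 748, which ranked 95 and 94 of 96. Line 486 also had 7852 CPM of 7 neuron and muscle markers, the rank 95 of 96, while lines 367 and 748 ranked 2 and 7.

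Over all 96 lines, levels in females followed the female germline list closely in 8 of the genes, with r from 0.67 for aub to 0.85 for krimp (rho 0.63 to 0.80, and 0.64 to 0.81 for r without 2 lines), and less so in qin (r = 0.48) and rhi (r = 0.30). With the late follicle cell list r was from 0.43 (piwi) to 0.58 (del) in the same 8 genes, 0.30 in qin and 0.04 in rhi. With the neuron and muscle list r was from -0.51 to -0.64 in the same 8 genes, -0.39 in qin and -0.12 in rhi. Correlations with these lists were not taken for all transcripts, so how many others follow them as closely is not known here. After the female germline list was regressed out of each gene over line means, an alternative added after the data were seen, the median correlation of the 45 pairs fell from 0.58 to 0.11 and 6 pairs passed. These were spn-E with krimp (r = 0.63), zuc with krimp (0.46), spn-E with zuc (0.34), and piwi with armi (0.34), spn-E (0.34) and krimp (0.30). The germline list is itself a sum of mRNA levels, and whether its level reflects the amount of ovary in a line was not tested. In males, correlations with a list of 4 early male germline markers were from 0.21 (krimp) to 0.56 (spn-E and qin) in 9 of the genes and 0.05 in rhi. After that list was regressed out, the median over all 45 pairs in males was 0.17 and 4 pairs passed. The list was not particular to males, since its median sum was 202 CPM in females and 49.9 CPM in males. Correlations with it in females were from 0.20 (rhi) to 0.78 (krimp). With the female germline list, r in males was from -0.03 (rhi) to 0.51 (qin).

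**Figure D4:**
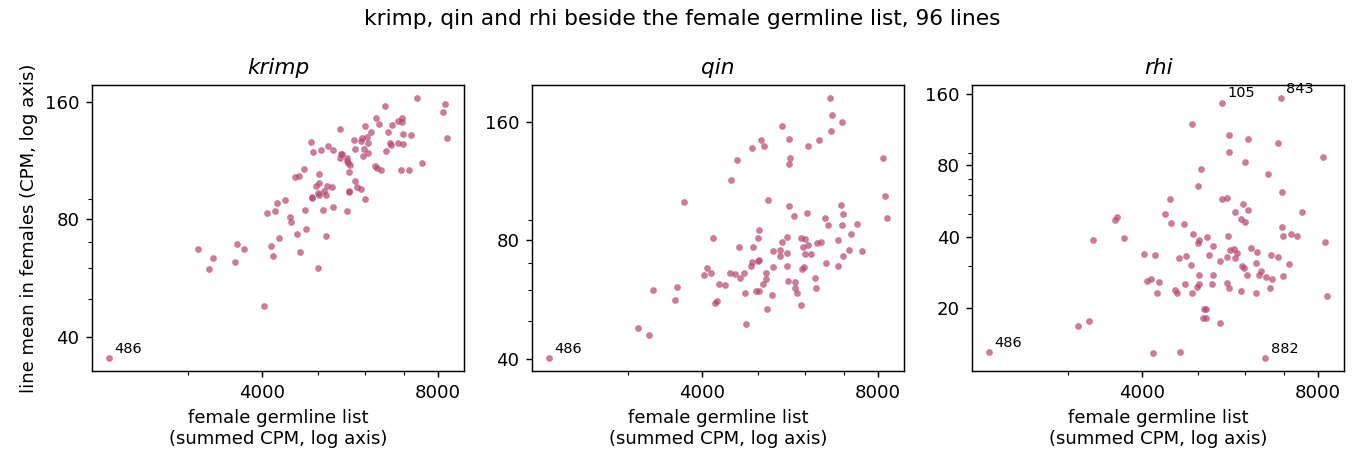
Level of krimp, qin and rhi in females of each line (CPM, log axis) against the summed level of 11 female germline markers (CPM, log axis), with 1 point for each of 96 lines. The points of krimp follow the list (r = 0.85), and those of qin form a band with a group of high lines above it. Those of rhi are spread widely at most levels of the list (r = 0.30). At its low end, lines 486, 239 and 786 held 13.0, 16.7 and 17.7 CPM of rhi.

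The annotated genes whose pattern over lines was most like that of each gene were named by the highest Pearson r over 96 line means among 8892 others in females. They were Msh6 for krimp (r = 0.94), a mismatch repair gene, sced for del (0.91), RnrL for spn-E (0.91), the large subunit of ribonucleotide reductase, nopo for zuc (0.86), CG1620 for piwi (0.83) and armi (0.79), CG3107 for AGO3 (0.81), vig2 for aub (0.71), ArgRS for qin (0.53) and CG6144 for rhi (0.40). In females no gene had another of the 10 as its closest gene. The best ranks were those of krimp, at 27 among the genes most like spn-E and 28 among those most like zuc. Other ranks lay far deeper. Among the genes most like piwi they ran from 197 for krimp to 4534 for rhi, and the deepest was 4736, for rhi with spn-E. For the mean of the 10 genes, the closest genes in females were asl (r = 0.92), lds, Cse1, me31B and CycA (0.91). Of 29 other genes of the pathway that reached 50 counts, tej (r = 0.90, rank 21 of 8883), which encodes a Tudor protein of the nuage, and nbr (r = 0.89, rank 75), an exonuclease that trims small RNAs, came closest, the median was 0.77, and tud had the lowest r (-0.12).

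In males, aub and AGO3 were each other's closest gene among 10756 (r = 0.53). The closest gene to piwi was dhd, one of the female germline markers (r = 0.62), which depended on the lines with transcripts of the other sex. Without these 9 lines, an alternative added after the data were seen, r with dhd was 0.36 at rank 621, and the closest gene was aly, a testis gene (r = 0.52). Over all lines male piwi also followed the summed yolk protein genes (r = 0.48) and the follicle cell list (r = 0.42), and without the 9 lines these were 0.05 and 0.06. For AGO3, aub ranked 7 without the 9 lines (r = 0.51), while AGO3 was still the first for aub. The closest genes to the others over all lines were Cdk1 for spn-E (0.65), spd-2 for del (0.60) and zuc (0.50), CG3939 for armi (0.58), Apl for qin (0.55), CG13373 for krimp (0.42) and CG4709 for rhi (0.39). For the mean of the 10 genes over all lines they were CycA (r = 0.69), CG18190, spd-2, RpS5b and BigH1 (0.63). The mitotic cyclin CycA was thus among the 5 closest in both sexes over all lines. After dhd, CycA and RpS5b were also the next closest to male piwi (r = 0.60 and 0.59). Correlations with the mean in males were not taken again without the 9 lines, so whether they depend on these was not tested. Of 22 other genes of the pathway, the median r with the mean was 0.15, and mael, which acts with Piwi in silencing, was the highest at 0.50.

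Whether a line with a high level in females also had a high level in males was asked of each gene over the 96 lines. The correlation was highest for rhi (r = 0.53, rho = 0.39, permutation p = 1e-05 and 9e-05, adjusted p = 0.000139 over 14141 transcripts, r = 0.47 without 2 lines). Of the 10 lines with most rhi in females, 8 were also among the 10 highest in males, namely 105, 129, 287, 340, 370, 441, 837 and 843. For the other genes, 0 to 2 lines were shared between these lists. Those among the 10 highest in females only were 712, with 82.5 CPM in females and 0.685 CPM in males, and 748, with 87.0 and 0.969 CPM. Correlations also passed for aub (r = 0.34, rho = 0.39, permutation p = 0.000670 and 9e-05, adjusted p = 0.00182), AGO3 (r = 0.25, rho = 0.23, permutation p = 0.0123 and 0.0253, adjusted p = 0.0199) and spn-E (r = 0.23, rho = 0.22, permutation p = 0.0219 and 0.0329, adjusted p = 0.0352). Without the 2 lines farthest from the median in females, r was 0.38 for aub, 0.24 for AGO3 and 0.19 for spn-E. The other 6 did not pass, with r from -0.06 for krimp to 0.17 for piwi. Some of these calls rested on few lines or on 1 replicate. Without the 9 lines that held transcripts of the other sex, piwi had r = 0.26 (permutation p = 0.0163) and spn-E r = 0.18 (permutation p = 0.0952). For spn-E the p was also 0.0649 without lines 486 and 367 (r = 0.19, an alternative added after the data were seen) and 0.0680 without replicate 1 (r = 0.19), and for AGO3 it was 0.194 without replicate 1 (r = 0.13, permutation tests). Thus 4 of 10 passed, where 65.5% of all transcripts did, and the median r of 0.14 lay under that of all transcripts, 0.32. Within the 45 lines whose females were on flow cells A and B, r was 0.64 for rhi, 0.51 for aub, 0.35 for AGO3 and 0.43 for spn-E. In those lines armi also had a positive correlation (r = 0.44, permutation p = 0.00275), which it did not have in the other 51 (r = -0.11, permutation p = 0.422). Within the other 51 lines it was 0.46 for rhi (permutation p = 0.0009), and it no longer passed for aub (r = 0.18, permutation p = 0.197), AGO3 (r = 0.16, permutation p = 0.261) and spn-E (r = 0.10, permutation p = 0.504).

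**Figure D5:**
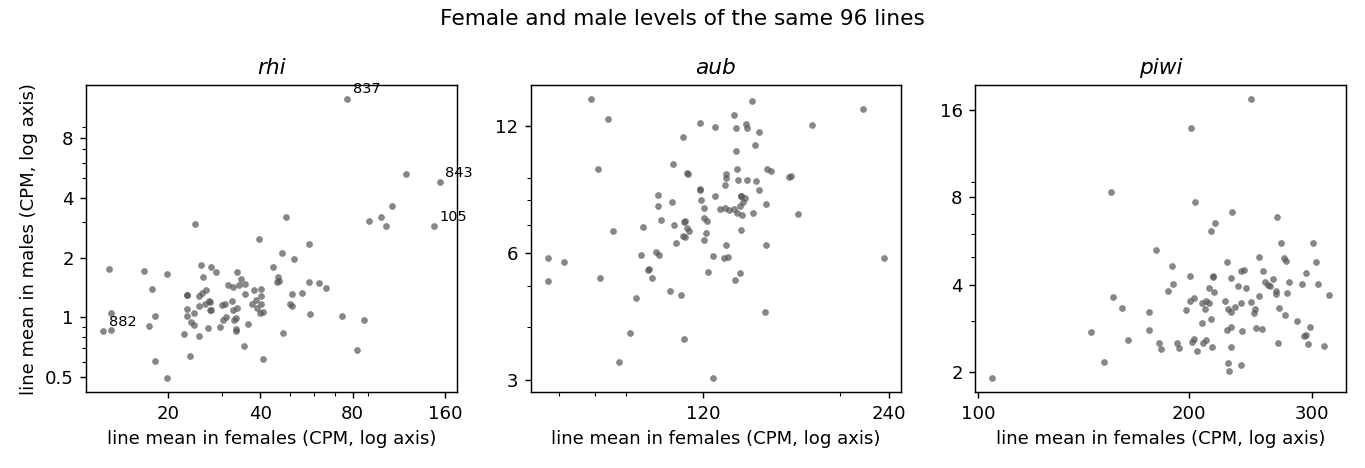
Level in males against level in females of the same line (CPM, log axes) for rhi, aub and piwi, with 1 point for each of 96 lines. For rhi the high lines of both sexes lie together at the upper right, with line 837 above all others in males, whereas piwi shows no such order (r = 0.17).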

How the data were processed

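Per the labels and the methods of the study, ribosomal RNA was depleted and directional libraries were sequenced as single reads. Adapters were removed with cutadapt 1.6, and BWA 0.7.10 served to discard reads of ribosomal, microbial and repeat origin. STAR 2.4.0e then aligned the remainder to BDGP5. The authors deposited raw read counts from HTSeq-count for 40020 gene models, and whether strand was used in counting is not given in the sources used here. All 384 columns were matched to a sample by name. Models marked ribosomal (162) or mitochondrial (35) were left out, and summary lines that name no gene (2.85% without a gene, 1.39% ambiguous, 25.8% at more than 1 place) entered neither library sizes nor tests.

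Counts were normalized by TMM and tested with edgeR 4.0.16 (glmQLFit and glmQLFTest, R 4.3.3) over every transcript whose mean reached 5 counts per library, at a BH-adjusted threshold of 0.05. For the sex effect, the 2 replicates of a line and sex were summed and line was a block. Line effects were fitted over the libraries of 1 sex, and the interaction over all 384. Standard errors came from limma 3.58.1, and Wolbachia status was not fitted. Replicates are separate samples of 1 line, so p-values for line weigh differences among lines against the spread between replicates. Correlations used log2 CPM with a prior count of 2 and 100000 permutations (Python 3.11.15, NumPy 2.4.6), and those between the sexes were adjusted over all transcripts tested (up to 20000 permutations each), not over the 10 genes as first planned. Exon lengths and overlaps came from the release 6 annotation.

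The genes described, the other lists and the rules for named genes (the 10 genes, those of the pathway lists at either end or not passing, the closest gene of each, and the 5 closest to the mean) were chosen with earlier results of these data known. Alternatives were other scalings (total counts, size factors of DESeq2 1.42.0) and DESeq2's Wald test, fits with no filter or with 50 counts as the minimum, fits in limma, a replicate block, pool or flow cell as a covariate, a prior count of 0.5, and subsets of lines or replicates. The tests were checked on simulated counts. Sequences and promoter motifs were not used here.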

Additional observations from a re-analysis of the deposited data

Results flagged for a closer look

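The line effect differed between the sexes for each of the 10 genes, by the interaction of sex and line (edgeR, 384 libraries). The F values were 7.51 for qin, 3.26 for krimp, 2.77 for del, 2.61 for armi, 2.55 for AGO3, 2.54 for aub, 2.42 for piwi, 2.12 for rhi, 1.85 for spn-E and 1.64 for zuc. The median F over all transcripts tested was 1.41, and 50.8% of them passed. For qin, the 16 lines that were highest in females had between 5.39 and 13.5 CPM in males, inside the range of the other 80 lines (5.19 to 17.0 CPM). For piwi in males, the replicates held 5.61 and 29.3 CPM in line 40 and 24.7 and 2.94 CPM in line 176, and the higher library of each also held follicle cell transcripts. In the edgeR fit without the 9 lines that had transcripts of the other sex, the interaction passed for all 10 genes. In limma it was lost for piwi, spn-E and zuc, and for piwi also with flow cell as a covariate or with a replicate block.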

How the results depend on the processing

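All 10 genes were higher in females under each of the 10 other settings tried, and no direction was reversed. The line effect in females passed for 10 genes under each alternative apart from the 45 lines on flow cells A and B alone, with 6. In males it passed for 7 to 10, the lowest with a minimum of 50 counts, which only 7 genes reached. The interaction passed for 7 (limma) to 10. With a replicate block in limma, 10 genes were higher in females, and 10 passed for line in females, 9 for line in males and 9 for the interaction (piwi lost in both). Replicate numbers were not taken as pairs of the sexes, since the deviations of same-numbered libraries correlated at over 0.1 in only 54 of 96 lines (median 0.13), although the numbers share a shift in level. In females the median correlation was 0.52 without lines 486 and 367 and 0.11 with the germline list regressed out (6 pairs passed), both chosen after the data were seen. It was 0.54 and 0.61 from 1 replicate alone, where 45 and 44 pairs passed. In males the median was 0.28 and 0.32 from 1 replicate alone (28 and 35 pairs passed), 0.34 in the lines not on A and B, 0.25 without the 9 lines and 0.17 with the germline list regressed out (4 pairs passed), and 16 pairs passed in the lines on A and B. Between the sexes, at an unadjusted p under 0.05, 4 genes passed, with 2 and 5 from 1 replicate alone (median r 0.13 and 0.18) and 2 in the lines not on A and B, and without the 9 lines piwi passed and spn-E did not. The median r was 0.27 in the lines on A and B, 0.10 without lines 486 and 367 and 0.24 with germline lists regressed out. Causes of these changes were not tested. Low counts of zuc and rhi in males (median 9 and 13) limit what their replicates can show.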
